A study of Mus musculus with 2 samples.

Results

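A set of 8 genes of renal water transport were followed cell by cell in a control and an ischemic mouse kidney. The genes were the aquaporins Aqp1, Aqp2, Aqp3, Aqp4, Aqp6, Aqp7 and Aqp11 and the vasopressin receptor gene Avpr2, 8 of the 32285 genes counted, and they were found by their symbols. Single cell RNA sequencing (scRNAseq) had been done on male wildtype C57BL/6J mouse kidneys at an age of 19 weeks. In the ischemia library, the left kidney had undergone 27 min of ischemia and was taken after 24 h of reperfusion. In the control library, the uninjured kidney of the other side was taken. There was 1 library per group, so no difference between the libraries could be tested. A contralateral kidney is not a sham-operated one, and the design text speaks of 1 mouse without saying outright that both kidneys were its own.

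Aquaporins are membrane channels for water, and some of them also pass glycerol. Aqp1 serves the proximal tubule, the thin descending limb and the vasa recta, where water is taken back constitutively. In the collecting duct, vasopressin binds its V2 receptor (Avpr2) on the basolateral side of principal cells, raises cyclic AMP and moves Aqp2 to the apical membrane. Water then leaves the cell through Aqp3 and Aqp4 on the basolateral side. Aqp6 lies in vesicles of acid-secreting intercalated cells, Aqp7 passes water and glycerol in the late (S3) proximal tubule, and Aqp11 is an intracellular aquaporin of the proximal tubule. Loss of Aqp2 after ischemic injury is a known companion of impaired urinary concentration.

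Cells that entered had 200 genes or more, between 500 and 150000 unique molecular identifiers (UMIs, each a counted transcript) and no more than 55% of UMIs from mitochondrial genes. This left 12586 of 15110 control barcodes and 13116 of 15257 ischemia barcodes, and 58 of the kept barcode sequences occurred in both libraries. The deposited totals were 142686238 and 142959737 UMIs, and the median kept cell held 3839 UMIs in control and 2138.5 in ischemia. Cells were clustered without the 8 genes and called "X-like" from markers of known kidney cell types. Proximal tubule (PT)-like cells numbered 3928 in control and 2760 in ischemia, and principal (CD-PC)-like cells 96 and 107. A further 4 small groups stayed without a type name and are called by their leading genes. The Klk1-led sub-cluster of the collecting duct cells (116 and 123 cells) was led by as many markers of the distal convoluted and connecting tubule as of principal cells, the Frmpd4-led sub-cluster held 70 and 44 cells, the Sox17-led sub-cluster of the endothelial cells (EC) held 90 and 100, and an Mgp-led one, too small to be described, held 14 and 20. A large cluster of 4531 and 5881 cells with medians of 894 and 797 UMIs was not named. Another unnamed cluster of 860 and 770 cells had markers of both the thick ascending limb and the distal convoluted and connecting tubule among its leading genes, and it held 49 and 9 Avpr2 UMIs. Both are left out of the descriptions by cell type.

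Levels are UMIs of a gene summed over the cells of a group, per 1000000 UMIs of those cells (CPM), with exact 95% Poisson intervals. Ratios are the ischemia level over the control level, with exact 95% conditional binomial intervals, and are given for genes with at least 50 UMIs over both libraries. Intervals for shares of cells are Clopper-Pearson. All of these cover counting error only and say nothing of the spread between animals. The intervals of levels and ratios also leave out the spread between cells. Where such intervals do not overlap, the gap is beyond counting error alone. A ratio of 0.5 or lower, or of 2 or higher, is called past 2-fold. In dissociated tissue, a lower summed level of a gene over a whole library cannot be told apart from fewer cells of the type that makes it, which is why levels within cell groups are given. Levels of different genes are not ranked against each other, and UMIs of a gene per UMI of another are compared between cell groups alone.

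Over all kept cells, 7 of the 8 genes were at a lower level in the ischemia library and Aqp7 was at a higher one. The share of all genes at a lower level was computed within cell groups and not over whole libraries, so this count has no background. Avpr2 was at 10.1 CPM in control and 3.92 in ischemia, a ratio of 0.390 (0.351 to 0.433), and Aqp3 was at 65.7 and 26.9 CPM, a ratio of 0.410 (0.394 to 0.426). Aqp4 had a ratio of 0.446 (0.412 to 0.483), Aqp11 of 0.535 (0.506 to 0.565), Aqp1 of 0.552 (0.539 to 0.566), Aqp6 of 0.60 (0.571 to 0.631) and Aqp2 of 0.612 (0.60 to 0.625). Aqp7 was at 5.88 CPM in control and 8.91 in ischemia, a ratio of 1.52 (1.38 to 1.66).

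The UMIs of each gene were shared unequally among the cell groups. Of the Aqp2 UMIs, CD-PC-like cells held 70.0% in control and 61.8% in ischemia. The Klk1-led sub-cluster held 8.03% and 19.8% of them. Of the Aqp4 UMIs, CD-PC-like cells held 81.7% and 86.6%, and intercalated cell (IC)-like cells held 61.2% and 61.6% of the Aqp6 UMIs, with a further 27.5% and 23.1% in CD-PC-like cells. PT-like cells held 86.5% and 88.5% of the Aqp7 UMIs and 84.9% and 82.6% of the Aqp11 UMIs. Aqp7 was found in each of the 3 PT-like clusters. Cluster 2, with Slc5a12 and Slc5a2 among its leading genes, held 42.2% and 46.8% of all Aqp7 UMIs (9.44 and 16.0 CPM), and cluster 4, with Slc7a13 and Slc22a6, held 29.1% and 28.6% (8.81 and 13.8 CPM). Aqp1 was spread over 3 places, with PT-like cells holding 53.0% and 42.5% of its UMIs, thin limb (TL)-like cells 19.5% and 17.5%, and the Sox17-led sub-cluster 16.4% and 30.3%. Aqp3 and Avpr2 were spread over several groups. For Aqp3 the shares were 50.3% and 48.2% in CD-PC-like cells, 9.89% and 23.4% in the Klk1-led sub-cluster, 16.4% and 14.7% in IC-like cells and 13.1% and 6.50% in PT-like cells. For Avpr2 they were 43.3% and 52.3% in CD-PC-like cells, 17.5% and 25.9% in the Klk1-led sub-cluster and 15.8% and 7.92% in IC-like cells.

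**Figure D1:**
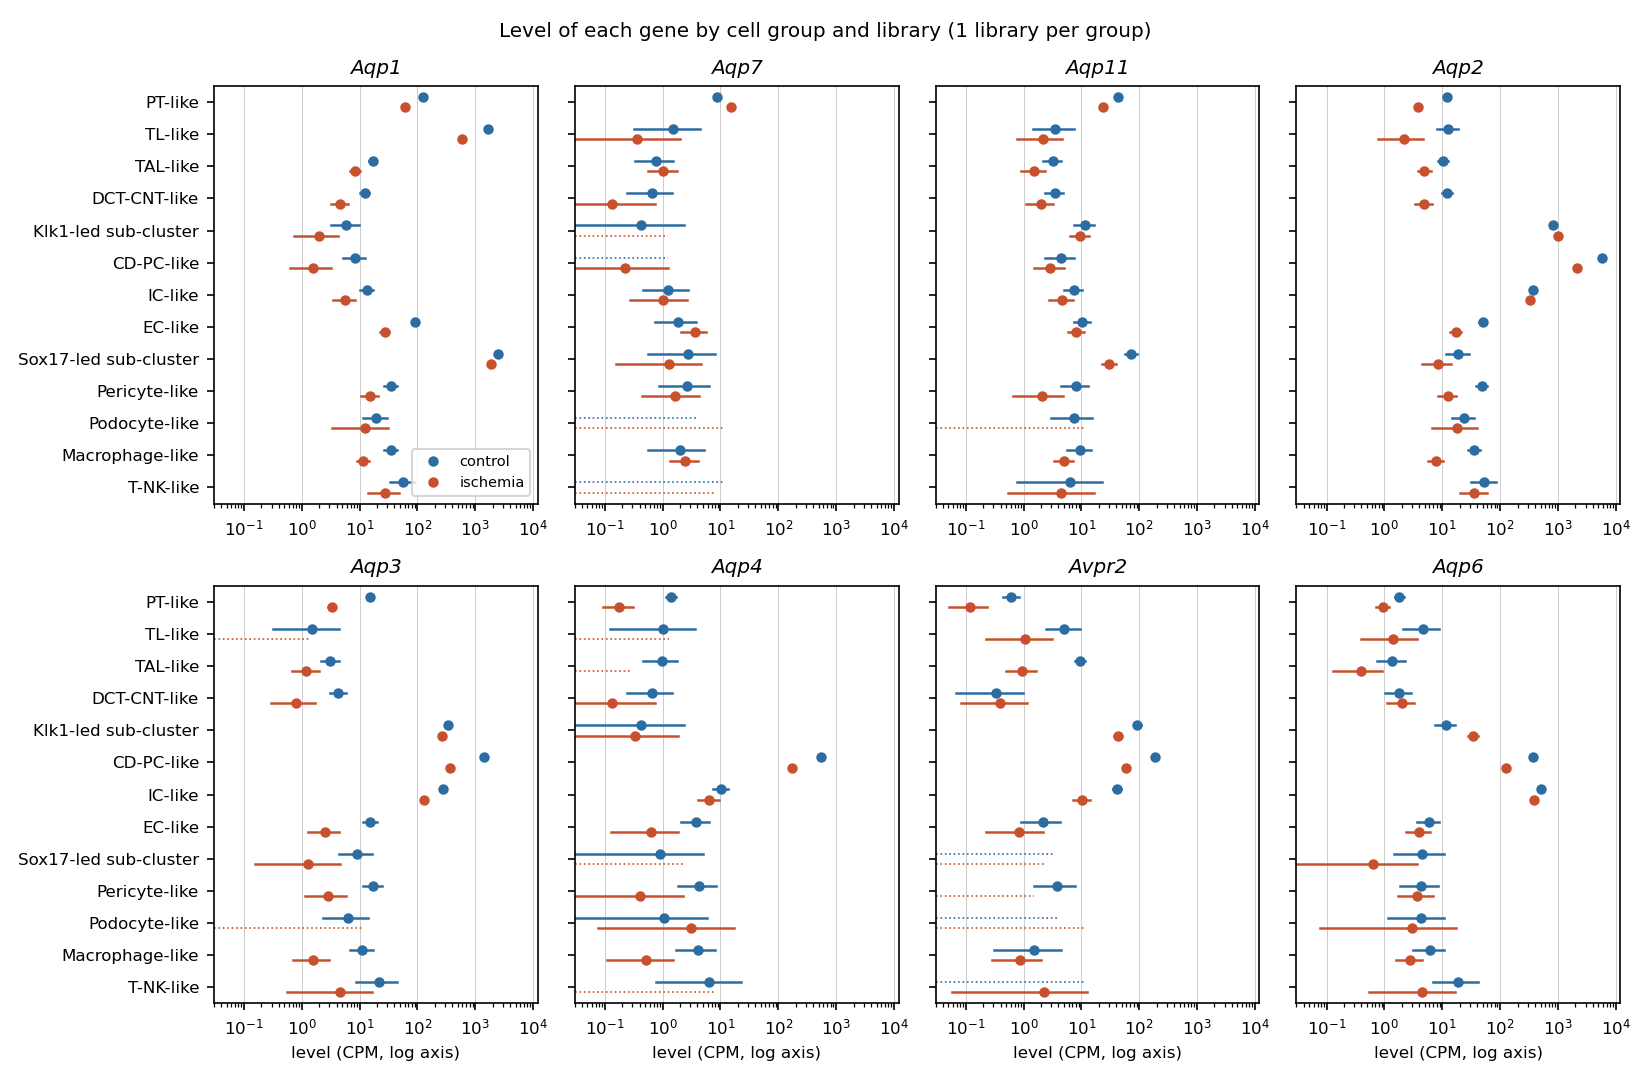
Level of each of the 8 genes (CPM, log axis) in 13 cell groups, with control in blue and ischemia in red. Points are summed levels, bars are exact 95% Poisson intervals, and a dotted bar runs to the upper limit where no UMI was counted. Aqp2 in CD-PC-like cells lies at 5795 CPM in control and 2110 in ischemia, while Aqp7 in PT-like cells lies at 8.83 and 14.9.

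Genes whose levels were most like those of each member were sought among 14314 genes over 34 groups, made of 18 cell groups and the libraries in which they held enough cells. The groups of 1 library share its free RNA, and these correlations are descriptions. Aqp2 was most like Fxyd4 (Pearson's r of log2 levels 0.971), Hsd11b2 (0.967) and Aqp3 (0.960). Fxyd4 modulates the sodium pump and Hsd11b2 inactivates glucocorticoids in cells that answer to aldosterone. Aqp3 was most like Aqp2, Hsd11b2 (0.95) and Kcne1 (0.937), and Avpr2 was most like Frmpd4 (0.922), Spock3 (0.905) and Hsd11b2 (0.904). The genes like Aqp4 included Mgat4c (0.909) and Wnt9b (0.908), a Wnt ligand of the collecting duct lineage. Aqp6 was most like the proton pump subunit gene Atp6v1g3 (0.944), the intercalated cell factor gene Foxi1 (0.934) and Gm12121 (0.918). In the proximal genes the likeness was weaker. Aqp7 was most like Gm10845 (0.818), Gm31641 (0.816) and Nit2 (0.816), and Aqp11 like Pllp (0.829), Glul (0.715) and Sp5 (0.708). The genes like Aqp1 included Tmem252 (0.786) and Pim3 (0.750).

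The 4 genes of the vasopressin-regulated route lie apart in the genome, so their positions and the sequences before their starts are shown before their values. In the GRCm38 build with GENCODE annotation, Aqp2 occupies chr15:99579055-99584547 on the plus strand, with Aqp6 downstream of it at chr15:99601400-99605477 on the same strand. Aqp3 lies at chr4:41092722-41098183 and Aqp7 at chr4:41033074-41048139, both on the minus strand. Aqp11 occupies chr7:97724006-97738289 on the minus strand, and Aqp1 occupies chr6:55336432-55348555 on the plus strand. Avpr2, at chrX:73892102-73895502 on the plus strand, lies with all of its 3401 bases inside the bounds of L1cam and of Arhgap4, which are read from the opposite strand. Whether the counting used strand is not given in the sources used here, and without it reads of overlapping genes cannot be told apart.

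RefSeq promoters were taken for 7 of the 8 genes. Aqp4 was left out of the promoter search by its chromosome, so its promoter was not compared, although its level was also lower in CD-PC-like cells. The 250 bases before the start are shown for the collecting duct genes Aqp2, Aqp3 and Avpr2, since their levels were lower together in CD-PC-like cells (GRCm38.p6, chr15:99578806-99579055 plus, chr4:41098184-41098433 minus and chrX:73891852-73892101 plus). Capitals mark 2 motifs searched on both strands, the cyclic AMP response element half-site TGACGT and the GATA motif GATAAG, which share no bases in the match below.
Aqp2: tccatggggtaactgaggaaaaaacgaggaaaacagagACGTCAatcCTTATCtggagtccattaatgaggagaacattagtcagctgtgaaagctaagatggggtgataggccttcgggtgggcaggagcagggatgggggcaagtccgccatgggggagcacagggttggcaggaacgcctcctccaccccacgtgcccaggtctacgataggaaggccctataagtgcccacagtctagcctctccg
Aqp3: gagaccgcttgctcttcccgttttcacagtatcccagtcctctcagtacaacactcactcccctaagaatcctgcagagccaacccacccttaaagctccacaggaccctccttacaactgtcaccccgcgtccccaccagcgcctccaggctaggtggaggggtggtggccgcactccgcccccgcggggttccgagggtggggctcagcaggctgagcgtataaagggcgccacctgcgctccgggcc
Avpr2: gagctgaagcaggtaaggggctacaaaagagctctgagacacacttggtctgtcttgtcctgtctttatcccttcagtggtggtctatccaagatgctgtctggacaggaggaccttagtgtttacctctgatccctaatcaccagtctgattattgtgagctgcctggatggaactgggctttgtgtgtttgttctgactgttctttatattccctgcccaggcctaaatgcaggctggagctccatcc
The Aqp2 promoter held both, each on the minus strand, as ACGTCA starting 212 bases and CTTATC starting 203 bases before the start. The promoters of Aqp3 and Avpr2 held neither in this window. Of 32851 mouse promoters of this length, 6.47% held the half-site and 6.55% the GATA motif, so a match is common by itself.

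In CD-PC-like cells, the receptor and all 3 collecting duct channels were lower in ischemia, at ratios from 0.265 to 0.364. Aqp2, the apical channel, was at 5795 CPM in control and 2110 in ischemia, from 17014 and 9488 UMIs. The ratio was 0.364 (0.355 to 0.373). Aqp2 was seen in 95 of 96 control cells (99.0%, 94.3 to 100) and in 100 of 107 ischemia cells (93.5%, 87.0 to 97.3). Among single cells, the median level was 5389 CPM in control and 2039 in ischemia, so the lower sum was not carried by a few cells. The 10 control cells with the most Aqp2 UMIs held 34.2% of them, and the 11 such ischemia cells held 36.3%.

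Aqp3, the basolateral channel for water and glycerol, was at 1403 CPM in control and 371 in ischemia, with a ratio of 0.265 (0.25 to 0.28). It was detected in 99.0% and 94.4% of the cells. Aqp4, the other basolateral channel, was at 550 and 176 CPM, with a ratio of 0.319 (0.293 to 0.348), and was seen in 74.0% (64.0 to 82.4) and 67.3% (57.5 to 76.0) of the cells. The gene lies at chr18:15389496-15410982 on the minus strand of GRCm38 and overlaps the antisense gene AC133525.2 over 7896 bases. Avpr2, the receptor, was at 185 CPM in control and 58.7 in ischemia, with a ratio of 0.318 (0.273 to 0.368). It was detected in 91 of 96 control cells (94.8%, 88.3 to 98.3) and 76 of 107 ischemia cells (71.0%, 61.5 to 79.4), and no other of the 8 genes differed as much in this unthinned share between the libraries in these cells.

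The ischemia cells were the deeper ones, with a median of 29504 UMIs against 23684.5 in control, so depth did not favor detection in control. When each cell was thinned to 1000 UMIs, Aqp2 was detected in 95.8% of control and 70.1% of ischemia cells, Aqp3 in 63.5% and 24.3%, Aqp4 in 37.5% and 16.8%, and Avpr2 in 14.6% and 3.74%. Aqp2 UMIs were also found in cells not known to make it, and the share with one was 19.9% in thick ascending limb (TAL)-like control cells (median 19907 UMIs) and 6.88% in those of ischemia (24563 UMIs). For Avpr2 the share in PT-like cells was 1.09% in control (13577 UMIs) and 0.290% in ischemia (18434 UMIs). The levels of Aqp2, Aqp3, Aqp4 and Avpr2 in CD-PC-like cells lay far above these in both libraries.

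The route was also looked at within single cells. UMIs of Aqp2, Aqp3 and Avpr2 together were found in 90 of 96 control cells (93.8%, 86.9 to 97.7) and in 74 of 107 ischemia cells (69.2%, 59.5 to 77.7). With Aqp4 as well, the counts were 66 (68.8%, 58.5 to 77.8) and 53 (49.5%, 39.7 to 59.4). Cells with Aqp2 but no Avpr2 UMI numbered 4 in control and 25 in ischemia.

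**Figure D2:**
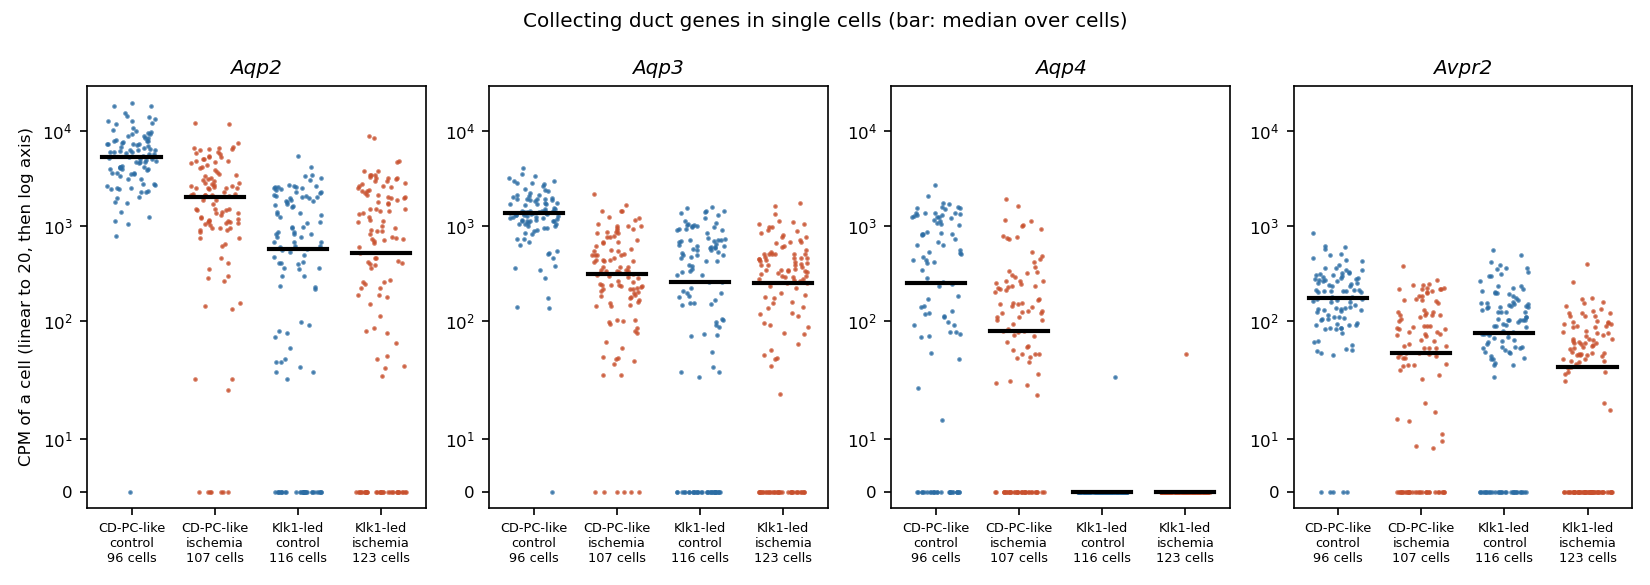
Level of Aqp2, Aqp3, Aqp4 and Avpr2 in single cells (CPM of a cell, linear up to 20 and then on a log axis) of the CD-PC-like group and the Klk1-led sub-cluster, control in blue and ischemia in red, with the median over cells as a bar. The median of Aqp2 in CD-PC-like cells lies at 5389 CPM in control and 2039 in ischemia, while that of the Klk1-led cells lies at 567 and 523.

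All 5 members with enough UMIs in CD-PC-like cells, Aqp6 included, lay at 0.5 or lower. Of the 9571 genes with enough UMIs in these cells, 10.2% lay at 0.5 or lower and 6.31% at 2 or higher, and the median ratio of all of them was 0.865. Markers that define the principal cell were lower too, with the 8 genes of their list summing to 8495 CPM in control and 3998 in ischemia, and none of them at 0. A pair of these markers, Fxyd4 and Hsd11b2, were at 4075 and 1781 CPM in control and at 2462 and 686 CPM in ischemia. The share of mitochondrial UMIs per cell had a median of 13.8% in control and 7.82% in ischemia. What part these differences have in the lower aquaporin levels was not tested.

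Some collecting duct cells held markers of both of its cell types. Cells with at least 10 UMIs of the principal cell list and 10 of the intercalated cell list are called mixed here, a definition made after the values were seen. It favors deep cells and cells rich in these markers. A high share of UMIs in mixed cells is thus partly built in for genes that go with either list. Mixed cells were 41 of the 96 control and 21 of the 107 ischemia CD-PC-like cells, with medians of 45109 and 87092 UMIs. Aqp6, an intercalated cell gene, was at 376 CPM in control and 128 in ischemia in CD-PC-like cells, a ratio of 0.340, but 99.7% and 98.8% of these UMIs lay in mixed cells. Without them, Aqp6 was at 2.82 and 2.44 CPM. The 4 genes of the vasopressin route kept their direction without mixed cells. Aqp2 was then at 6459 CPM in control and 2513 in ischemia (ratio 0.389), Aqp3 at 1484 and 427 (0.288), Aqp4 at 593 and 201, and Avpr2 at 213 and 71.0.

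The Klk1-led sub-cluster showed another pattern for Aqp2. Its leading genes Klk1, Slc8a1, Trpv5 and S100g serve the connecting tubule and its calcium transport, and its leading genes Hsd11b2, Scnn1g and Scnn1b serve aldosterone-regulated sodium transport. Aqp2 was at 826 CPM in control and 1003 in ischemia there, a ratio of 1.21 (1.15 to 1.29), with UMIs in 75% (66.1 to 82.6) and 73.2% (64.4 to 80.8) of the cells. The 8 markers of the distal convoluted and connecting tubule summed to 58382 CPM in control and 24200 in ischemia in these cells, with Pvalb at 0 in ischemia, and the principal cell list to 3553 and 3208 CPM. The part of these differences was not tested. The median ratio of all genes in this group was 1.15, so Aqp2 lay near it, and the median Aqp2 level of a single cell was 567 CPM in control and 523 in ischemia. Aqp3 was at 343 and 268 CPM, with a ratio of 0.781 (0.708 to 0.862). Avpr2 was at 93.1 CPM in control and 43.2 in ischemia, with a ratio of 0.464 (0.371 to 0.578), and was found in 74.1% (65.2 to 81.8) and 56.1% (46.9 to 65.0) of the cells. Aqp4 had 1 UMI in each library. Aqp6 was at 11.4 and 34.6 CPM, a ratio of 3.03, of which mixed cells (3 in control and 11 in ischemia) held 40.7% and 97.1%, and without them it was at 7.15 and 1.22 CPM. In all, 2 members, Avpr2 below and Aqp6 above, were thus past 2-fold in a group where 1.78% of genes lay at 0.5 or lower and 6.07% at 2 or higher. The direction of Aqp2 was not stable there, since its ratio was 0.957 among cells with at most 25% mitochondrial UMIs and 0.985 when the water genes took part in the clustering, whereas that of Avpr2 stayed below 1 in every alternative.

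In the Frmpd4-led collecting duct cells, the channels were lower in ischemia as in CD-PC-like cells. Aqp2 was at 1737 and 742 CPM (ratio 0.427, 0.368 to 0.495), Aqp3 at 570 and 199 CPM (0.349, 0.262 to 0.461) and Aqp4 at 212 and 65.4 CPM (0.308, 0.184 to 0.498). All 3 lay at 0.5 or lower, as did 4.9% of the 1736 genes with enough UMIs, while 5.59% lay at 2 or higher. Avpr2, from 23 and 10 UMIs, was at 66.9 CPM in control and 28.4 in ischemia.

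Set in order, the level of Aqp2 in control was highest in CD-PC-like cells, followed by the Frmpd4-led, Klk1-led and IC-like cells, with intervals that did not overlap. In ischemia the Klk1-led cells, at 1003 CPM (967 to 1039), stood above the Frmpd4-led cells, at 742 CPM (655 to 838). Avpr2 in control was highest in CD-PC-like cells (170 to 201 CPM), and the Klk1-led (81.2 to 106 CPM) and Frmpd4-led (42.4 to 100 CPM) cells that followed could not be told apart by their intervals. In ischemia the 3 groups were in the same order, and the interval of the Frmpd4-led cells (13.6 to 52.3 CPM) reached those of both others.

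Of 40 other genes of water handling, 29 had enough UMIs in CD-PC-like cells. Of these, 6 lay at 0.5 or lower and 1 at 2 or higher, with a median ratio of 0.760, beside the 10.2% and 6.31% and the median of 0.865 of all genes. Those below were Slc14a2, the vasopressin-regulated urea transporter of the collecting duct (217 and 40.3 CPM, ratio 0.186), the prostaglandin E receptor gene Ptger1 (120 and 19.4 CPM, 0.161), the transcription factor genes Tfcp2l1 (752 and 335 CPM, 0.446), Gata2 (125 and 59.2 CPM, 0.475) and Hoxd8 (204 and 95 CPM, 0.465), and Adcy6, an adenylyl cyclase that acts downstream of the receptor (51.4 and 22.0 CPM, 0.428). Ptger4, another prostaglandin E receptor gene, lay above (13.3 and 28.5 CPM, 2.14). By list, the counts below were 3 of 6 collecting duct transcription factors, 1 of 9 vasopressin signalling genes, 1 of 5 tonicity and urea genes, 0 of 6 Aqp2 trafficking genes and 1 of 3 prostaglandin E receptors, lists too short to be read against the share of all genes. In the Klk1-led sub-cluster, 1 of 26 such genes lay at 0.5 or lower, Ptger1 again (25.4 and 4.94 CPM, 0.195), and 4 lay at 2 or higher, beside 1.78% and 6.07% of all genes. Those above were Ptger3 (8.46 and 30.3 CPM, 3.58), Akr1b3, which makes the osmolyte sorbitol (16.1 and 38.6 CPM, 2.40), the fusion protein gene Stx4a (11.8 and 25.7 CPM, 2.17) and the epithelial factor gene Elf3 (21.6 and 43.8 CPM, 2.03).

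In IC-like cells, Aqp6 was lower in the ischemia library by less than 2-fold. It was at 514 CPM in control and 390 in ischemia, a ratio of 0.759 (0.712 to 0.810), and was found in 55.9% (49.2 to 62.5) and 49.7% (41.8 to 57.6) of the cells. Mixed cells made up 72 of the 227 control and 55 of the 163 ischemia cells. Their median depths were 37889 and 42738 UMIs, against 6421 and 8364.5 in the rest. Without mixed cells, Aqp6 was at 390 and 365 CPM, a ratio of 0.934. The largest IC-like sub-cluster held 55.6% and 58.2% of all Aqp6 UMIs, at 555 and 418 CPM. The smallest, of 24 and 23 cells, had 1 Aqp6 UMI in each library (9.43 CPM, 0.239 to 52.6, and 9.68 CPM, 0.245 to 53.9). Slc26a4, the anion exchanger of base-secreting intercalated cells, was among the leading genes of both, so it did not set them apart. The Kit-led IC-like sub-cluster, of 77 and 43 cells, had Slc4a1 and Slc4a9 among its leading genes but not Slc26a4. Aqp6 was at 341 CPM in control and 231 in ischemia there, below the largest sub-cluster in both libraries. Without mixed cells it was at 236 and 244 CPM, against 474 and 419 in the largest. The sub-clusters were not named as acid-secreting or base-secreting.

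Aqp3 was found in IC-like cells as well, at 280 CPM in control and 129 in ischemia with a ratio of 0.462 (0.417 to 0.512). The 8 distal convoluted and connecting tubule markers summed to 15183 CPM in control and 9690 in ischemia in these cells, with Pvalb at 0 in ischemia. The 9 intercalated cell markers summed to 6911 and 5931 CPM. The definition of mixed cells does not use the former list, and its part in the Aqp3 level was not tested. Without mixed cells Aqp3 was at 136 and 49.9 CPM, a ratio of 0.368. In T and NK (T-NK)-like cells it was at 21.8 and 4.5 CPM, from 7 and 2 UMIs alone. In macrophage-like cells it was at 11 and 1.56 CPM (22 and 9 UMIs). In the largest IC-like sub-cluster, and again without mixed cells, Aqp3 was at 150 CPM in control and 49.1 in ischemia, and Aqp2 was at 21.4 and 3.57 CPM. There, 35 of 59 control cells and 23 of 46 ischemia cells had UMIs of Aqp3 and none of Aqp2. Aqp2 over all IC-like cells was at 366 and 328 CPM, a ratio of 0.896 (0.834 to 0.964, and 0.463 without integration of the libraries), and mixed cells held 93.1% and 88.4% of these UMIs. Without mixed cells the direction turned, with Aqp2 at 62.4 and 105 CPM, but 146 of the 150 ischemia UMIs then lay in 6 cells of the Kit-led IC-like sub-cluster. Cells with an Aqp2 UMI were 43 of 155 in control and 10 of 108 in ischemia. Avpr2 was at 41.3 and 10.2 CPM, a ratio of 0.246 (0.170 to 0.347, and 0.0886 without integration), with 96.0% and 100% of its UMIs in mixed cells, and without these it was at 4.13 CPM in control and had no UMI in ischemia. Aqp1, Aqp3 and Avpr2 were the 3 of 7 members with enough UMIs that lay at 0.5 or lower in IC-like cells, where 2.44% of genes did and 3.61% lay at 2 or higher.

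**Figure D3:**
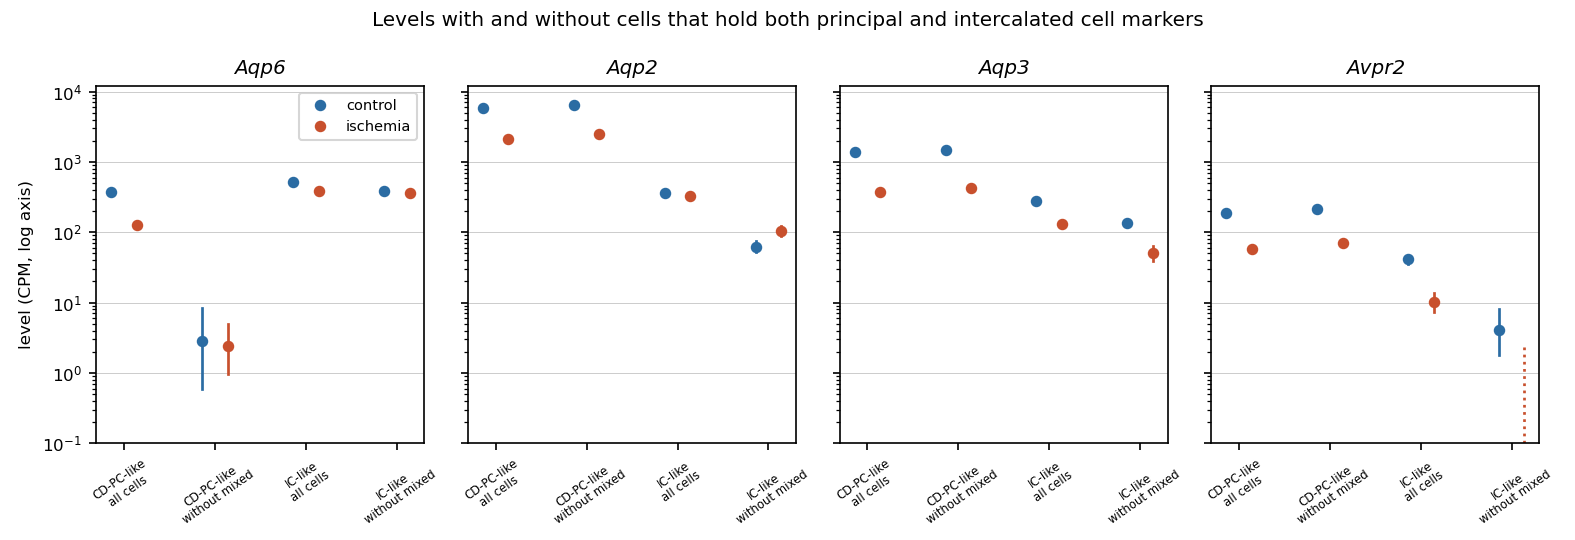
Levels of Aqp6, Aqp2, Aqp3 and Avpr2 (CPM, log axis) in CD-PC-like and IC-like cells, over all cells and without the mixed cells, control in blue and ischemia in red with exact 95% Poisson intervals (dotted to the upper limit where no UMI was counted). Aqp6 in CD-PC-like cells drops from 376 and 128 CPM to 2.82 and 2.44 CPM without mixed cells, while Aqp2 there stays at 6459 and 2513 CPM.

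Avpr2 was also found in TAL-like cells, the water-tight segment in which the V2 receptor is known to drive salt transport. It was at 9.54 CPM (7.75 to 11.6) in control and 0.951 CPM (0.492 to 1.66) in ischemia, from 99 and 12 UMIs. The ratio was 0.0997 (0.0498 to 0.182). The 6 TAL markers summed to 22422 CPM in control and 9266 in ischemia in these cells, none of them at 0, and the injured PT markers to 100 and 325 CPM, with Krt20 at 0 in control. Their part in the Avpr2 ratio was not tested. The share of cells with a UMI was 15.7% (12.6 to 19.2) in control and 2.43% (1.26 to 4.20) in ischemia, against 0.912% and 0.805% in macrophage-like cells (median 5155 and 8290 UMIs). In control, TAL-like cells held 0.925 Avpr2 UMIs per Aqp2 UMI, and CD-PC-like cells held 0.0319. In ischemia the values were 0.194 and 0.0278, and the CPM interval of Avpr2 in TAL-like cells overlapped that of macrophage-like cells (0.868 CPM, 0.282 to 2.03). RNA free in the droplets was not measured, and its part in these counts was not tested. Of the genes with enough UMIs in TAL-like cells, 7.63% lay at 0.5 or lower and 7.82% at 2 or higher. Of 26 other water-handling genes there, 3 lay below and 1 above, namely Ptger3 (624 and 176 CPM, 0.283), Hoxd8 (102 and 45.6 CPM, 0.449) and the osmolyte carrier gene Slc6a12 (4.53 and 1.98 CPM, 0.437) below and Ptger4 (3.95 and 23.9 CPM, 6.06) above.

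Upstream, Aqp1 was lower in all its sites, by unequal amounts. In PT-like cells it was at 124 CPM in control and 60.0 in ischemia, a ratio of 0.483 (0.465 to 0.501), with UMIs in 61.8% (60.2 to 63.3) and 49.5% (47.6 to 51.4) of the cells. In TAL-like cells, which lack the channel, the share was 18.5% and 8.91%. The ratio in PT-like cells passed 0.5 under 3 alternatives (0.504 to 0.548), so whether it is past 2-fold depends on the processing. The 8 early PT markers summed to 8880 CPM in control and 4756 in ischemia in these cells and the 6 injured PT markers to 24.5 and 518 CPM, none of them at 0, and their part in the Aqp1 ratio was not tested. In TL-like cells Aqp1 was at 1671 and 598 CPM, a ratio of 0.358 (0.337 to 0.380, and 0.109 when cells were gated on marker UMIs in place of clusters), with UMIs in 57.8% (47.7 to 67.6) and 44.2% (34.0 to 54.8) of the cells. The gate took in 186 control and 621 ischemia cells, against 102 and 95 by clustering, so its ratio is of another set of cells. In the Sox17-led endothelial sub-cluster it was at 2509 and 1877 CPM, a ratio of 0.748 (0.710 to 0.788). The mean over single cells gave 0.439 there in place of the sum. The order of the levels was the same in both libraries, with Sox17-led cells highest, then TL-like and then PT-like cells, and the intervals of these groups did not overlap. In the other EC-like cells Aqp1 was at 89.0 CPM in control and 27.0 in ischemia (ratio 0.303, 0.245 to 0.372), and T-NK-like cells, which do not make the channel, were at 56.2 and 27.0 CPM. Aqp1 lay at 0.5 or lower in PT-like cells, where 3.82% of genes did, and in TL-like cells, where 6.62% did and 3.82% lay at 2 or higher. In the Sox17-led sub-cluster, where 4.35% of genes did and 2.56% lay at 2 or higher, it did not by the sum. By the mean over single cells (0.439) it did, so whether Aqp1 is past 2-fold there depends on the summary.

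TL-like cells held few other aquaporin UMIs, and of 25 other water-handling genes 4 lay at 0.5 or lower and 2 at 2 or higher, beside 6.62% and 3.82% of all genes. Those below were the osmolyte genes Akr1b3 (558 and 204 CPM, 0.365) and Slc6a6, a taurine carrier (658 and 258 CPM, 0.392), Tfcp2l1 (123 and 54.8 CPM, 0.445) and Adcy6 (40.7 and 19.6 CPM, 0.481). Above were the inositol carrier gene Slc5a3 (103 and 274 CPM, 2.66) and Rab11a, a gene of vesicle recycling (127 and 287 CPM, 2.27). Slc14a2, which was lower in CD-PC-like cells, was at 2271 and 2266 CPM in TL-like cells, a ratio of 1.0. The markers of the thin limb list summed to 9851 CPM in control and 6347 in ischemia in these cells, with 1 of the 8 at 0 in each library (Akr1b7 in control and Sptssb in ischemia). The early PT markers summed to 777 and 222 CPM there, and their part in the Aqp1 ratio was not tested.

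Within the Sox17-led sub-cluster, Aqp1 was carried by part of the cells. At least 10 Aqp1 UMIs were found in 42 of 90 control cells and 37 of 100 ischemia cells, which were at 5241 and 3130 CPM, whereas the remaining cells were at 80.5 and 102 CPM. The split was made on the same Aqp1 UMIs, so a difference in Aqp1 between the classes is built in. Slc14a1, the urea transporter of the descending vasa recta, was at 541 CPM in control and 298 in ischemia in the cells with 10 or more Aqp1 UMIs and at 29.1 and 32.8 CPM in the rest. Plvap, which marks fenestrated endothelium, was at 341 and 300 CPM in the former and at 601 and 722 CPM in the latter. These 2 genes and the split were chosen after their values were seen, and the median depths were 8043 and 15937 UMIs in the former against 9892.5 and 6209 UMIs in the latter. Aqp11 was also found in this sub-cluster, at 72.5 and 30.4 CPM (ratio 0.419, 0.286 to 0.608), and in control it was at 118 CPM (89.9 to 151) in the cells with 10 or more Aqp1 UMIs and at 32.5 CPM (19.6 to 50.8) in the rest. In ischemia these were at 36.4 (25 to 51.1) and 21.9 CPM (12 to 36.7), with intervals that overlapped.

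Aqp11 and Aqp7 went opposite ways in PT-like cells. Aqp11 was at 42.2 CPM in control and 23.9 in ischemia, a ratio of 0.567 (0.534 to 0.603), with UMIs in 41.2% (39.6 to 42.7) and 34.6% (32.8 to 36.4) of the cells. Aqp7 was at 8.83 CPM in control and 14.9 in ischemia, a ratio of 1.69 (1.53 to 1.87), with UMIs in 13.4% (12.3 to 14.5) and 26.1% (24.5 to 27.8) of the cells. The ischemia cells were deeper, so these unthinned shares are not compared between the libraries. After thinning to 1000 UMIs the shares of Aqp7 were 0.874% and 1.10%, closer together than the unthinned ones. In TAL-like cells, Aqp11 was at 3.18 and 1.51 CPM and Aqp7 at 0.771 and 1.03 CPM. The median ratio of all genes in PT-like cells was 1.08, and 6.9% of genes lay at 2 or higher, which Aqp7 did not reach.

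The 3 PT-like clusters gave the same direction for each gene. Aqp1 had a ratio of 0.601 (0.551 to 0.655) in cluster 1, 0.501 (0.469 to 0.536) in cluster 2 and 0.442 (0.419 to 0.466) in cluster 4. Aqp11 followed the same order, with 0.646, 0.575 and 0.522, but its intervals overlapped between neighbours. Aqp7 had ratios of 1.85 (1.44 to 2.39), 1.70 (1.47 to 1.96) and 1.57 (1.31 to 1.87) in clusters 1, 2 and 4, which their intervals do not tell apart. The clusters are parts of 1 library and no replicates of each other.

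PT-like cells with more UMIs of Havcr1 (KIM-1), the marker of injured proximal tubule, had lower levels of Aqp1 and Aqp11 within the ischemia library but not steadily so within the control library. Aqp1 was at 70.2 CPM (65.9 to 74.8) in the 881 cells without a Havcr1 UMI, at 65.7 (61.5 to 70.2) in the 728 cells with 1 to 2, and at 54.6 (52.3 to 56.9) in the 1151 cells with 3 or more. Aqp11 was at 30.7 (27.9 to 33.8), 27.3 (24.6 to 30.2) and 20.5 (19.1 to 21.9) CPM in the same classes. Aqp7 was at 14.2, 14.6 and 15.3 CPM, with overlapping intervals. The control cells without a Havcr1 UMI were at 121 CPM of Aqp1, 41.8 of Aqp11 and 8.76 of Aqp7, and the ischemia cells without one lay outside the intervals of all 3. In the 149 control cells with 1 to 2 Havcr1 UMIs Aqp1 was higher, at 181 CPM (168 to 195), and Aqp11 was at 51.0, while in the 32 with 3 or more they were at 135 (112 to 162) and 34.1 CPM. The ischemia classes also differed in their clusters, with cluster 4 giving 96 of the 881 cells without Havcr1 and 520 of the 1151 with 3 or more. So did the control classes, where cluster 4 gave 881 of 3747, 81 of 149 and 20 of 32 cells. Control Aqp1 was at 190 CPM in cluster 4, against 117 and 78.6 in clusters 1 and 2. The classes are ranges of 1 count and not cell types. The median depths of the ischemia classes were 8432, 11097 and 37460 UMIs, so that a cell with few UMIs may lack Havcr1 by counting alone.

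**Figure D4:**
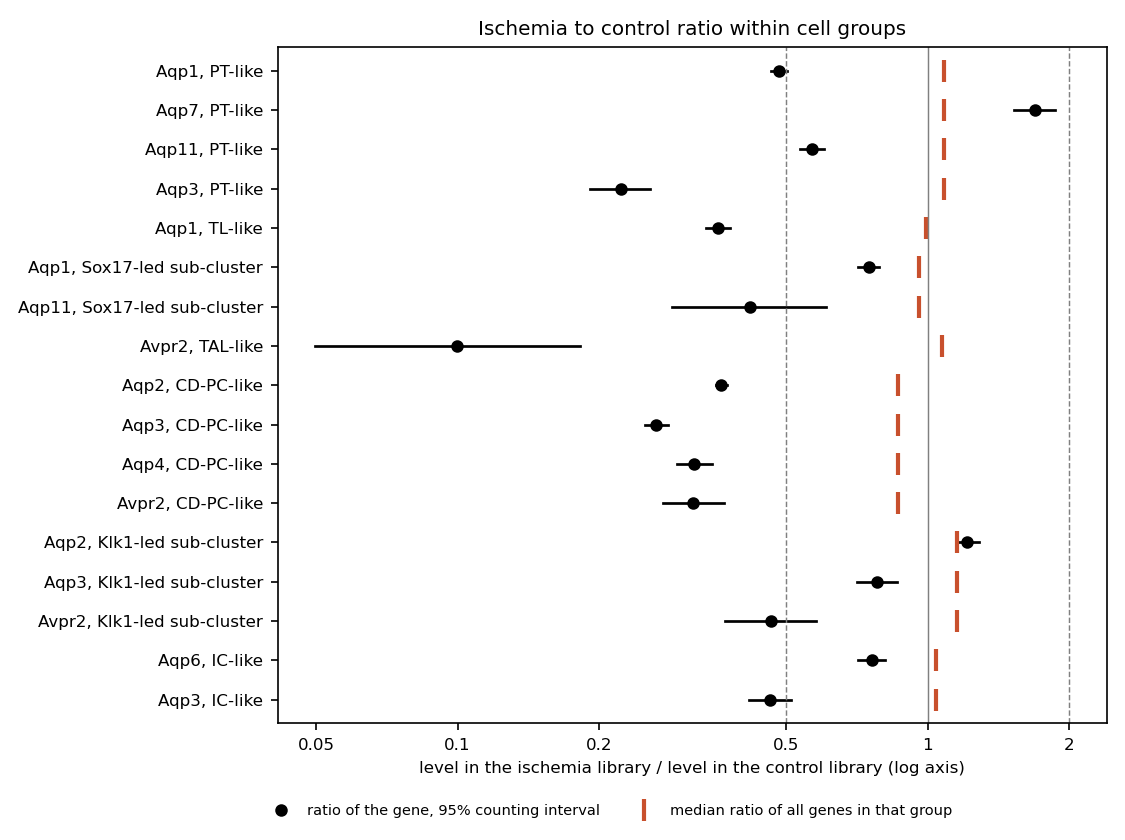
Ratio of the ischemia level to the control level (log axis) for 17 pairs of a gene and a cell group, with exact 95% counting intervals, beside the median ratio of all genes of that group as a red tick. Dashed lines mark 0.5 and 2. Among these pairs Avpr2 in TAL-like cells has the lowest ratio (0.0997), and Aqp7 in PT-like cells (1.69) and Aqp2 in the Klk1-led sub-cluster (1.21) lie above 1.

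Aqp3 was also counted in PT-like cells, at a level within the range of the other groups given here. It was at 14.9 CPM in control and 3.31 in ischemia, a ratio of 0.222 (0.192 to 0.257), beside 21.8 and 4.5 CPM in T-NK-like (7 and 2 UMIs), 17.0 and 2.88 in pericyte-like, 15.2 and 2.51 in EC-like and 11 and 1.56 in macrophage-like cells. In ischemia, only the T-NK-like cells among these lay above the PT-like cells. Counted per Aqp2 UMI in the same cells, control PT-like cells of clusters 2 and 4 held 1.59 (1.37 to 1.86) and 1.71 (1.44 to 2.02) Aqp3 UMIs, and those of cluster 1 held 0.664 (0.561 to 0.784). In CD-PC-like, TAL-like and macrophage-like control cells the same quantity was 0.242, 0.299 and 0.310, and in IC-like cells it was 0.764 (0.711 to 0.821). Of the principal cell markers, the pair Fxyd4 and Hsd11b2 differed less in control, but the whole list of 8 did not. The list summed to 149 CPM in control PT-like cells, where Aqp2 was at 12.1 CPM. In control CD-PC-like cells it summed to 8495 CPM, where Aqp2 was at 5795 CPM. Fxyd4 was at 0.703 per Aqp2 UMI in CD-PC-like control cells and 0.768 to 1.17 in the PT-like clusters, and Hsd11b2 at 0.307 and 0.461 to 0.509. In ischemia Fxyd4 was at 1.17 in CD-PC-like cells and 1.85 to 2.62 in the PT-like clusters, and Hsd11b2 at 0.325 and 0.529 to 0.80. Where the Aqp3 UMIs of PT-like cells came from was not tested. For Aqp3 in ischemia the quantity was 0.559, 1.19 and 0.938 in PT-like clusters 1, 2 and 4 and 0.176, 0.242 and 0.20 in CD-PC-like, TAL-like and macrophage-like cells. Aqp4 in PT-like cluster 4 was at 0.246 UMIs per Aqp2 UMI in control (0.179 to 0.331, from 55 UMIs) and at 0.0462 in ischemia (from 3 UMIs), against 0.0949 and 0.0832 in CD-PC-like cells. Avpr2 in the 3 PT-like clusters lay between 0.0491 and 0.0528 per Aqp2 UMI in control, with intervals that held the 0.0423 of macrophage-like cells.

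**Figure D5:**
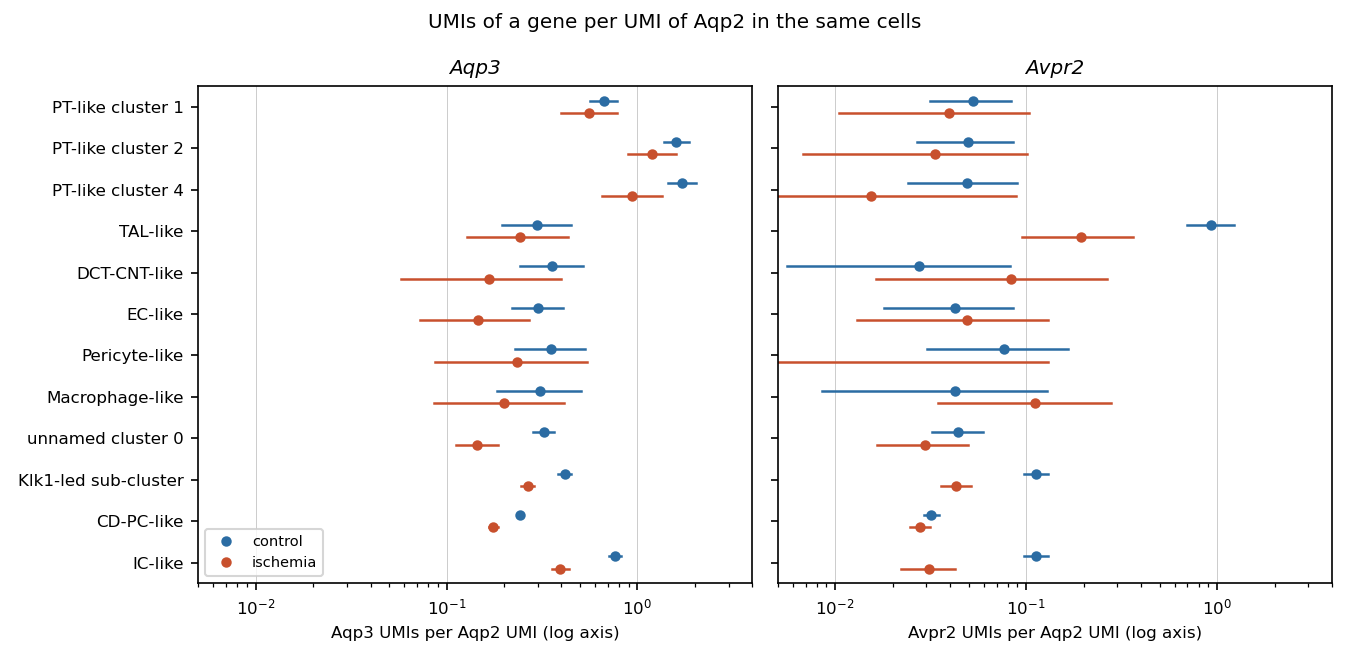
UMIs of Aqp3 (left) and Avpr2 (right) per UMI of Aqp2 in the same cells (log axis), in 12 cell groups, control in blue and ischemia in red, with exact 95% counting intervals. For Aqp3, PT-like clusters 2 and 4 lie at 1.59 and 1.71 in control against 0.310 in macrophage-like cells, and for Avpr2, TAL-like cells lie at 0.925 in control.

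The other aquaporin genes Mip, Aqp5, Aqp8, Aqp9 and Aqp12 were looked at in PT-, TL-, TAL-, CD-PC-, IC- and EC-like cells and the Klk1-led and Sox17-led sub-clusters. Only Aqp8 reached 50 UMIs in one of these groups. The remaining groups, macrophage-like and neutrophil-like cells among them, were not looked at for these genes. Aqp8 was at 0.279 CPM in control and 0.441 in ischemia in PT-like cells, from 20 and 30 UMIs, with a ratio of 1.58 (0.870 to 2.94). Of 28 water-handling genes with enough UMIs in PT-like cells, none lay at 0.5 or lower and 2 lay at 2 or higher, beside 3.82% and 6.9% of all genes. They were Elf3 (3.50 and 11.8 CPM, 3.38) and Akr1b3 (8.96 and 25.8 CPM, 2.88).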

How the data were processed

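scRNAseq was done on 1 control and 1 ischemic mouse kidney. Per the file headers and labels, the authors deposited raw UMI counts per gene and barcode, made with Cell Ranger 7.0.0 on mm10 and not normalized. Whether intronic reads were counted is not given in the sources used here. Kidneys were dissociated with enzymes at 37 °C, which can alter transcripts.

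Counts were log-normalized (scale factor 10000) and clustered with Seurat 5.3.0 in R 4.3.3, using 2000 variable genes without the 8 members and the 40 water-handling genes, anchor integration, 30 principal components, resolution 0.3 and seed 42. Clusters were named from marker lists when 3 or more markers reached 10 UMIs and the leading genes held more markers of that list than of any other. Collecting duct and endothelial clusters were clustered again by the same steps, a choice made after the data were seen. Summed levels and intervals used Python 3.11.15 with scipy 1.17.1, numpy 2.4.6 and pandas 2.3.3, and figures used matplotlib 3.10.9. Ratios, intervals and thinning alone were checked on simulated counts. These were drawn from the model that the intervals assume, so clustering, naming and the spread between cells were not tested. Scrublet (scanpy 1.11.5) marked 0 of 12586 and 0 of 13116 cells, so it had not worked as a filter and doublets were not removed.

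The members and lists were chosen with earlier results of these data known. Text names the 8 members, the 3 genes most like each, list genes past 2-fold (at most 12 per cell group) and markers where a label needed a check. Some genes that meet this rule are not reported here. Alternatives changed the mitochondrial limit, UMI minimum, integration, resolution, variable genes, doublets, gate, scaling, summary over cells, thinning, low-count filter and fold.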

Additional observations from a re-analysis of the deposited data

Results flagged for a closer look

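Aqp2 differed in direction between 2 groups of collecting duct cells. Its ratio of ischemia to control was 0.364 in CD-PC-like cells and 1.21 in the Klk1-led sub-cluster, and the intervals lay on opposite sides of 1. The difference between the groups was not tested, since each library is 1 sample. In the Klk1-led sub-cluster the direction was kept in 7 of 9 alternatives, and the lowest ratio was 0.957, with at most 25% mitochondrial UMIs. The median ratio of all genes was 0.865 in the former and 1.15 in the latter.

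Aqp6 differed in the same way, with a ratio of 0.340 in CD-PC-like cells and 3.03 in the Klk1-led sub-cluster, also untested. In CD-PC-like cells 99.7% of its control UMIs and 98.8% of its ischemia UMIs lay in cells that also held intercalated cell markers, and in the Klk1-led sub-cluster the shares were 40.7% and 97.1%. Without these mixed cells too few Aqp6 UMIs were left for the minimum set for ratios, so the directions could not be compared. In CD-PC-like cells 3 control and 7 ischemia UMIs gave a ratio of 0.864, with level intervals that overlapped. In the Klk1-led sub-cluster 16 and 3 UMIs gave 0.171. The level there was 4.09 to 11.6 CPM in control and 0.251 to 3.56 in ischemia, so it was no longer higher in ischemia.

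Barcodes that failed the filters, 2524 in control and 2141 in ischemia, held UMIs of 3 collecting duct genes at a higher level in the ischemia library than in the control library, opposite to the kept cells. Aqp2 was at 34.6 CPM in the removed control barcodes and 74.2 in those of ischemia. Aqp3 was at 10.4 and 14.6 CPM and Aqp4 at 2.44 and 13.4 CPM. Aqp6 was at 7.5 (6.29 to 8.87) and 5.55 CPM (4.4 to 6.92), and Avpr2 was at 1.72 (1.17 to 2.44) and 2.25 CPM (1.54 to 3.18) in control and ischemia, and for each the intervals overlapped. The removed barcodes had medians of 70.4% and 73.4% mitochondrial UMIs.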

How the results depend on the processing

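No paired analysis was possible because each group has 1 library. Across 21 ratios of a member in a cell group, 212 values were recomputed under alternatives, of which 208 had the direction reported and 4 had the other. Aqp2 in the Klk1-led sub-cluster had a ratio of 0.957 with at most 25% mitochondrial UMIs and 0.985 with the water genes kept among the variable genes. Without mixed cells, Aqp2 in IC-like cells had a ratio of 1.69 and Aqp6 in the Klk1-led sub-cluster of 0.171. The latter came from 16 control and 3 ischemia UMIs, fewer than the minimum set for ratios. The cause was not tested. Aqp6 there reached 15.3 with at most 25% mitochondrial UMIs.

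Of 171 recomputed values that answer a comparison, 42 moved, ratios by more than their counting interval and counts of genes by over 1.5 times. No ratio among them changed direction, but the ratios that did change it had not been put in this set. With at most 25% mitochondrial UMIs, the ratio of Aqp1 in PT-like cells was 0.429, of Aqp2 in CD-PC-like cells 0.353, of Aqp3 in IC-like cells 0.405 and of Aqp11 in PT-like cells 0.520. Without integration, Aqp1 in PT-like cells had 0.457, Aqp3 in IC-like cells 0.340 and Aqp6 in IC-like cells 0.817. At resolution 0.6, Aqp1 and Aqp11 in PT-like cells had 0.548 and 0.613. A gate on marker UMIs changed which cells made up each group. With it, Aqp1 had 0.536 in PT-like and 0.109 in TL-like cells, Aqp2 and Aqp3 had 0.422 and 0.313 in CD-PC-like cells, and Aqp3 had 0.415 in IC-like cells. Without mixed cells, Aqp2 and Aqp3 had 0.389 and 0.288 in CD-PC-like cells, and Aqp3 and Aqp6 had 0.368 and 0.934 in IC-like cells. Without mitochondrial UMIs in the scaling, Aqp1 had 0.458 in PT-like cells, Aqp2 and Aqp3 had 0.338 and 0.245 in CD-PC-like cells, and Aqp6 had 0.711 in IC-like cells. Divided by the median ratio of all genes, Aqp1 and Aqp11 had 0.446 and 0.524 in PT-like cells, and Aqp2, Aqp3 and Aqp4 had 0.421, 0.306 and 0.369 in CD-PC-like cells. As means over single cells, Aqp1 had 0.504 in PT-like cells, 0.314 in TL-like cells and 0.439 in the Sox17-led sub-cluster, Aqp2, Aqp3 and Aqp4 had 0.405, 0.299 and 0.375 in CD-PC-like cells, Aqp3 and Aqp6 had 0.398 and 0.829 in IC-like cells, and Aqp11 had 0.632 in PT-like cells.

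The genes at 0.5 or lower in CD-PC-like cells numbered 981, against 555 with the gate, 589 after division by the median ratio and 2450 at 1.5-fold, and those at 2 or higher 604 against 1192 at 1.5-fold. In PT-like cells these were 517 against 1221 and 934 against 2173 at 1.5-fold. Among the other 675 values, which were ratios, levels, shares and counts of genes, 193 moved and 4 changed direction. Leaving out cells called by Scrublet gave no value, since it called none, and the other doublet alternative and the mixed-cell one were chosen after seeing the data. Without integration no CD-PC-like or Klk1-led group was found and TAL-like cells numbered 13 in ischemia. At resolution 0.6 no sub-cluster matched the Sox17-led one, and the gate has no unnamed groups.

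With 1 library per group, animal, surgery, dissociation and library preparation cannot be told apart from ischemia. CD-PC-like cells were few (96 and 107), and low counts limit Avpr2 there (543 and 264 UMIs) and Aqp7 in PT-like cells (634 and 1015 UMIs over 3928 and 2760 cells).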
